A study of Homo sapiens with 9 samples.

Results

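The 10 epithelial genes described here are the keratins KRT7, KRT8, KRT18 and KRT19, the splicing regulators ESRP1 and ESRP2, the adhesion proteins CDH1 and EPCAM, and the claudins CLDN1 and CLDN16. They were listed by name, with earlier results of these libraries in view: ESRP1 had been seen lower after knockdown of DDX3X, and KRT8 lower with mutant than with wild type DDX3X. All 10 were found among the 57820 gene identifiers of the count tables, and 6 of them passed the filter on low counts, which asked for at least 1 CPM (reads scaled to the library's total) in at least 2 libraries. The other 4 (KRT19, ESRP2, CDH1 and EPCAM) were near or under the detection limit in most libraries. They were fitted only in the alternative without the filter, where none was called in the 3 comparisons the genes were not chosen on.

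Keratins are the intermediate filament proteins of epithelia. A type II keratin pairs with a type I keratin, and KRT8 with KRT18 is the typical pair of simple epithelia, in which KRT7 (type II) and KRT19 (type I) also occur. ESRP1 and ESRP2 are RNA-binding proteins that direct the epithelial pattern of alternative splicing. CDH1 (E-cadherin) and EPCAM are surface proteins of epithelial cells, and claudins form the strands of tight junctions.

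The study sequenced poly(A) RNA of Daoy cells, an established human medulloblastoma line, in 9 libraries to follow expression with and without the RNA helicase DDX3X, which is encoded on the X chromosome. Control 1 was from parental cells and control 2 from cells with the vector. In the 3 knockdown libraries a doxycycline-inducible hairpin targeted DDX3X, in its 3' UTR in shDDX3X 1 and shDDX3X 3 and in its open reading frame in shDDX3X 2. In the remaining libraries cells carrying the 3' UTR hairpin expressed a stably transfected, FLAG-tagged DDX3X, which was wild type in 1 library and the G302V, R534H or P568L mutant in 1 library each, so the mutants are read together as a class of 3. The hairpin lines were polyclonal populations. One treatment text (1 µg/ml doxycycline for 72 h) stands for every library and does not say whether each control received the drug, so an effect of the drug and of the hairpin cannot be told apart. Replicates are not described as separate cultures, so a p-value below reflects the spread among these libraries. Libraries of a group also differ in kind of control, hairpin target or mutant, so that spread mixes such differences with technical ones. Whether it also holds variation between separate cultures is not known.

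Each library had 8216568 to 13030572 reads on genes, and a gene without a count could still be at 0.230 to 0.363 CPM (3 counts). The deposited names of the libraries fall into 2 number series, A (control 1, shDDX3X 1 and 2) and B (the other 6), and unaligned reads made up 5.24% to 5.73% of reads in A and 19.6% to 24.0% in B. DDX3X itself was at 36.4%, 20.3% and 40.3% of the control of the same series in shDDX3X 1, 2 and 3, and at 43.1% to 53.4% in the re-expression libraries, where the counts do not separate the construct from the cell's own transcript. Sonic hedgehog and granule lineage markers summed to 101.3 to 171 CPM, although ATOH1 was at 0 to 0.117 CPM and BARHL1 at 0 to 0.0838 CPM. Haematopoietic markers summed to at most 2.09 CPM and endothelial markers, of which 3 of 4 were matched, to at most 1.18 CPM. Fibroblast markers summed to 3646 to 6256 CPM in controls, 7094 to 10669 CPM after knockdown, 6137 CPM with wild type and 6320 to 9550 CPM with mutants, chiefly COL1A1 and COL1A2. Of these, COL1A1 alone was higher in every knockdown library (6635, 5207 and 9871 CPM) than in both controls (1668 and 4721 CPM). COL1A2 (1909 and 1488 CPM in the controls, 1438, 1766 and 757 CPM after knockdown), PDGFRB and DCN overlapped. PDGFRA and LUM were lower in every knockdown library than in both controls. The part of these collagen-rich profiles in the results below was not tested.

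Divided by the length of each gene's principal transcript, KRT8 and KRT18 were by far the most abundant of the 10 genes. Their median levels over the 9 libraries were 98.7 and 83.4 CPM per kb. CLDN16 and CLDN1 followed with medians of 3.94 and 3.19 CPM per kb, and KRT7 with 0.896 CPM per kb. EPCAM (0.274 CPM per kb), ESRP1 (0.264), KRT19 (0.0760), ESRP2 (0.0637) and CDH1 (0.0247) were lowest. The ranges of neighbours in this order overlapped except at the step from KRT18, whose lowest library was at 70.4 CPM per kb, to CLDN16, whose highest was at 7.62 CPM per kb. Of the simple-epithelial set, then, the filament pair was plentiful while E-cadherin, EPCAM and KRT19 were scarcely detected.

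**Figure D1:**
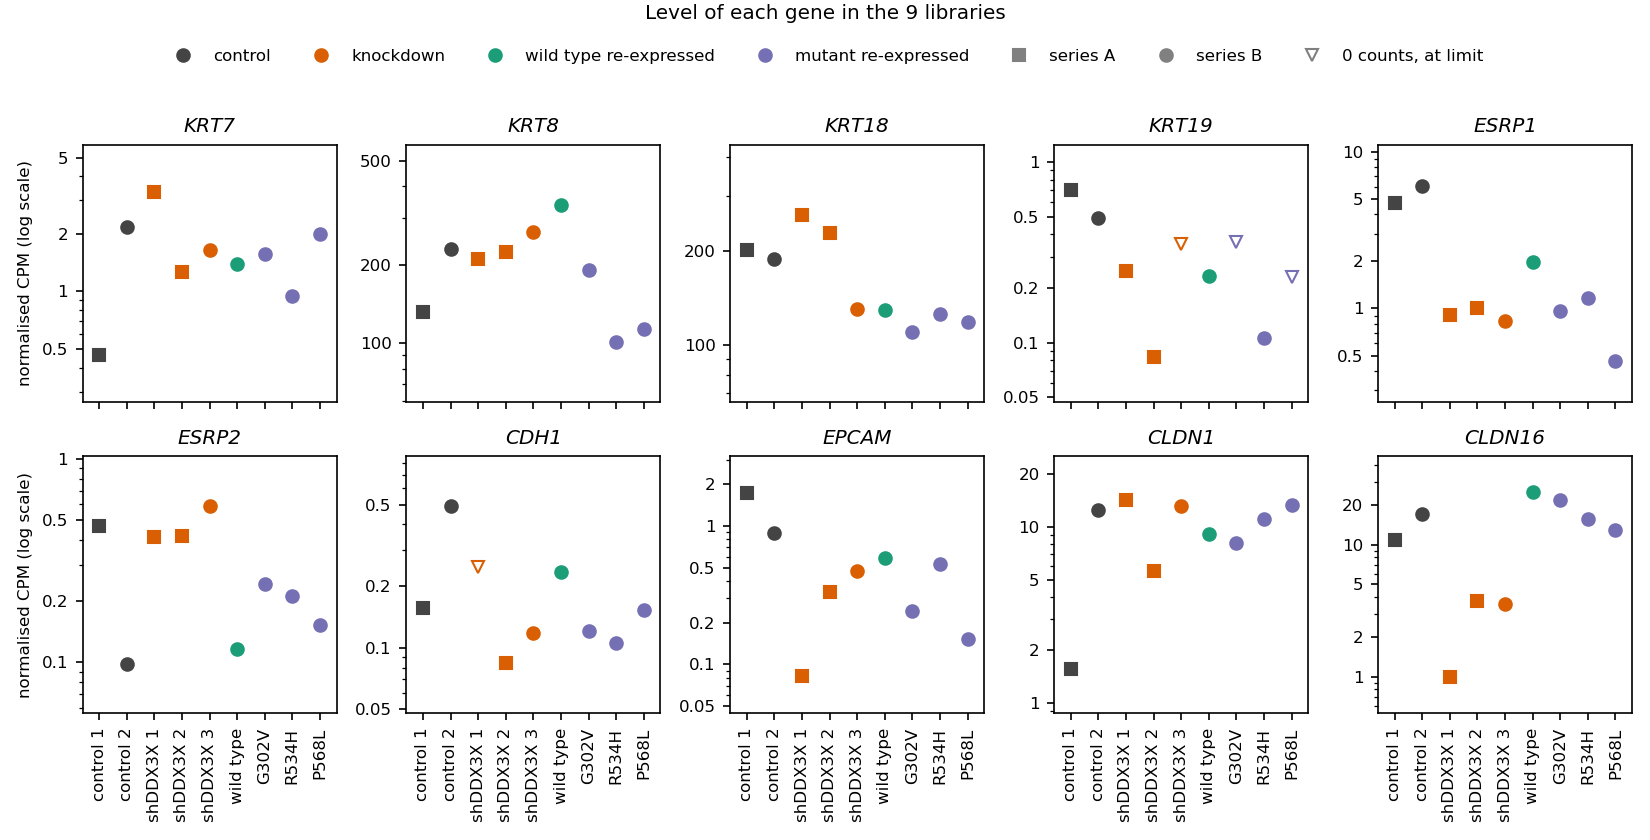
Normalised CPM (log axis, scale differing by panel) of the 10 genes in each of the 9 libraries; colour gives the group, squares are series A, circles series B, and open triangles mark libraries without a count, drawn at the limit of 3 counts. ESRP1 is high in the 2 controls (4.75 and 6.11) and low elsewhere, CLDN16 is low in the 3 knockdown libraries, and KRT8 is lowest with R534H and P568L.

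ESRP1 (ENSG00000104413.11), which favours epithelial exons in transcripts of growth factor receptors and adhesion proteins, was expressed at a low level in every library. It stood at 4.75 and 6.11 normalised CPM in control 1 and control 2, and at 0.911, 1.01 and 0.827 CPM in shDDX3X 1, 2 and 3. It was at 1.98 CPM with wild type DDX3X, and in the G302V, R534H and P568L libraries at 0.967, 1.16 and 0.461 CPM. Both controls lay above every other library, and the wild type library lay above all knockdown and mutant libraries.

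These levels rest on few reads: 61 and 62 counts in the controls, 11, 12 and 7 after knockdown, 17 with wild type, 8, 11 and 6 with mutants. Relative to the control of the same series, ESRP1 was at 19.2% (95% exact binomial interval 9.09% to 36.7%), 21.1% (10.4% to 39.7%) and 13.5% (5.22% to 29.6%) in the knockdown libraries. Such intervals cover counting error only. The wild type library held 32.4% (17.8% to 56.1%) of the vector control, and the mutants 15.8%, 19.0% and 7.54%. The knockdown intervals of both hairpins overlapped, as did that of the wild type library with each of them.

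The fitted knockdown effect on ESRP1, given as a description because the gene was chosen on this contrast, was -2.51 ± 0.43 on the log2 scale (SE; 3 knockdown and 2 control libraries), with -2.30 in series A and -2.87 in series B. Against knockdown, ESRP1 with wild type DDX3X was 2.01-fold as high (95% confidence interval 0.732 to 5.52, adjusted p = 1 in edgeR's quasi-likelihood test). Against shDDX3X 3 alone, the knockdown library of the same series, the wild type ratio was 2.39 (0.944 to 6.83, counting error). Mutant libraries against knockdown gave a log2 value of -0.22 ± 0.56 (adjusted p = 0.949).

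Against control, ESRP1 with the mutants was lower by a log2 value of -2.74 ± 0.47 (95% confidence interval -3.78 to -1.69, 3 of 3 mutants below both controls), with an unadjusted p of 0.000175 and an adjusted p of 0.0942 in edgeR, which misses the threshold of 0.05. These comparisons share their control or knockdown libraries with those on which the genes were chosen and so are not independent of that choice. DESeq2 gave an adjusted p of 0.0373 for the same difference. Leaving out control 1 gave 0.0396 and leaving out shDDX3X 3 gave 0.0322, while leaving out control 2 gave 0.253 and leaving out P568L 0.415, and all alternatives spanned 6.49e-05 to 0.415. Lower expression per cell and fewer expressing cells cannot be told apart in bulk RNA, for ESRP1 or for any gene below.

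ESRP2, the paralogue with a similar binding preference, had 6 and 1 counts in the controls, 5 in each knockdown library, 1 with wild type and 2 with each mutant. That is 0.0986 to 0.591 normalised CPM, close to the level that 3 counts represent. No difference was detectable at this depth.

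Genes whose splicing the ESRP proteins are known to regulate were read for their total level, since gene counts say nothing of exon use. All 10 listed genes were tested and 0 were called in any of the 5 comparisons in edgeR. With knockdown 6 were higher and 4 lower, with a median log2 of 0.06 beside -0.01 over all genes tested. RALGPS2, a Ral exchange factor, had a log2 value of -0.72 (adjusted p = 0.103) and passed the threshold in 1 alternative, without the filter on low counts (0.0422), in a range up to 0.997.

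The 5 genes with the pattern most like that of ESRP1, by Pearson's r of log2(CPM + 1) over the 9 libraries among 11575 genes with a mean of at least 5 CPM, were STING1 (r = 0.94), MYO5C (0.94), COLEC12 (0.94), TUB (0.94) and LYSMD2 (0.93). STING1, an adaptor of innate sensing of cytosolic DNA, was at 33.8 and 47.7 CPM in the controls, 15.4, 17.6 and 13.7 CPM in the knockdown libraries, 25.6 CPM with wild type and 14.9 to 23.7 CPM with mutants. MYO5C, a class V myosin motor, had 62.0 and 66.9 CPM in the controls, 23.8 to 32.2 CPM after knockdown, 33.1 CPM with wild type and 23.8 to 31.8 CPM with mutants. In both genes, as in ESRP1, the controls were highest and the wild type library was next, and all 9 points share library and series, so r describes them and carries no test.

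KRT8 (ENSG00000170421.7), the type II keratin of simple epithelia, followed another order. It stood at 132 and 229 normalised CPM in control 1 and control 2, and at 210, 223 and 266 CPM in shDDX3X 1, 2 and 3. The wild type library reached 338 CPM, and those of G302V, R534H and P568L 190, 101.4 and 113 CPM. The wild type library was the highest of all, R534H and P568L were the lowest, and G302V lay between the 2 controls.

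As a ratio to the wild type library, KRT8 was at 0.562 (0.529 to 0.598) with G302V, 0.30 (0.279 to 0.323) with R534H and 0.335 (0.314 to 0.357) with P568L, with exact binomial intervals. The interval of G302V lay above those of the other mutants. KRT8 had 960 to 2900 counts per library, so counting error was small beside the differences. The fitted log2 value of mutants against wild type was -1.33 ± 0.30 (SE; 95% confidence interval -2.0 to -0.65). It is a description with no test, since KRT8 was chosen on this contrast and there is 1 wild type library.

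In KRT8 the mutants also lay below all 3 knockdown libraries, in which no DDX3X was added back. The fitted value was -1.13 ± 0.29 log2 (0.457-fold, 95% confidence interval 0.294 to 0.712), with an unadjusted p of 0.00284 and an adjusted p of 0.831 in edgeR. This did not pass the threshold, nor did DESeq2 (adjusted p = 0.0658). Without the filter on low counts it did (6.31e-05), in a range up to 1 over the alternatives. The mutant libraries are those of the contrast on which KRT8 was chosen, so the value is not independent of that choice. Against control the mutants were at -0.63 ± 0.28 (adjusted p = 0.412), with G302V above control 1. Wild type against knockdown was 0.20 ± 0.37 (adjusted p = 1), and this value changed sign, to -0.15, without shDDX3X 3. Knockdown against control, described only, was 0.50 ± 0.27, with ratios of 1.59, 1.68 and 1.16 to the control of the same series.

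Reads of KRT8 may be split with its many processed pseudogenes, of which 51 are listed in the tables. They held 4.39% of KRT8-type reads in the wild type library, 7.58% with G302V, 15.04% with R534H and 11.8% with P568L, or 129 to 207 counts in any library. The share was thus highest where KRT8 was lowest, while the pseudogene counts themselves moved over a narrower range. With pseudogene counts added to KRT8, mutants against wild type came to -1.23 and mutants against knockdown to -1.04 on the log2 scale.

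KRT18 (ENSG00000111057.6), the type I partner of KRT8, did not share its order. It was at 201 and 188 normalised CPM in control 1 and control 2, and at 261, 228 and 130 CPM in shDDX3X 1, 2 and 3. The wild type library was at 129 CPM, and those of G302V, R534H and P568L at 110, 126 and 118 CPM. The 5 libraries of series B other than control 2 were all lower than every library of series A, and the wild type and mutant levels were close together.

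Relative to control 2, shDDX3X 3 held 69.2% (64.2% to 74.5%) of KRT18, the wild type library 68.7% (63.8% to 74.0%), and the mutants 58.4%, 66.7% and 62.9%. In series A the knockdown libraries held 130.2% and 113.6% of control 1. The fitted mutant values were -0.39 ± 0.22 against knockdown (adjusted p = 0.831) and -0.46 ± 0.21 against control (adjusted p = 0.425), and neither passed. The latter was 0.14 without control 2. Mutants against wild type, described only, were at -0.13 (95% confidence interval -0.68 to 0.41).

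Per length, KRT8 was 0.484 and 0.894 times KRT18 in the controls, 0.591, 0.717 and 1.503 times in shDDX3X 1, 2 and 3, and 1.92 times with wild type. With G302V, R534H and P568L the ratio was 1.27, 0.593 and 0.702. KRT8 was thus the more abundant partner in shDDX3X 3, wild type and G302V, and the less abundant one in the other 6 libraries. In the annotation used for lengths the 2 genes lie on opposite strands and overlap over 8.14% of the KRT8 and 24.0% of the KRT18 principal transcript, and the unstranded kit does not separate reads from the shared stretch.

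Across the 9 libraries log2 levels of KRT8 and KRT18 had a Pearson r of 0.161 (permutation p = 0.669, adjusted p = 0.847 over 6 keratin pairs) and a Spearman rho of 0.30 (permutation p = 0.437, adjusted p = 0.874). Without R534H and P568L, the libraries farthest from the KRT8 median, r was -0.353, and within the 6 libraries of series B it was 0.308. None of the 6 pairs among KRT7, KRT8, KRT18 and KRT19 passed after adjustment, the closest being KRT18 with KRT19 (r = 0.574, permutation p = 0.109, adjusted p = 0.652; rho = 0.610, permutation p = 0.0908). That pair had r = 0.885 within series B and r = 0.940 without shDDX3X 1 and 2, and KRT19 had 0 to 9 counts per library.

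**Figure D2:**
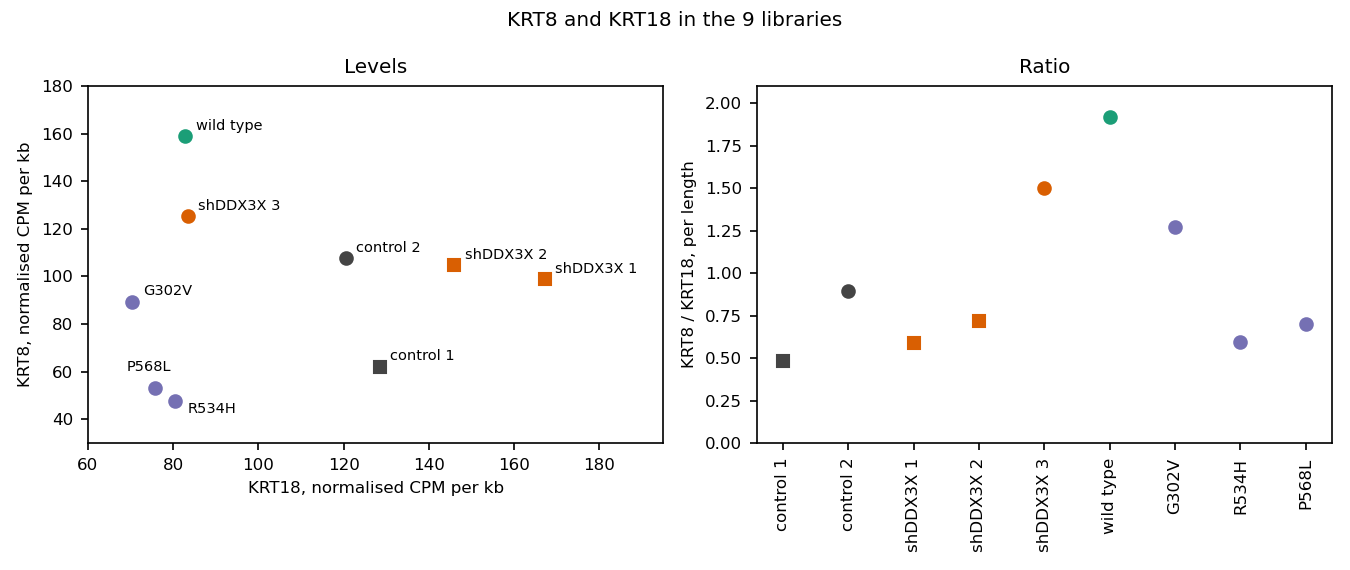
KRT8 against KRT18 in normalised CPM per kb of principal transcript (left) and their ratio per library (right, axis from 0); colours and symbols are as in the plot of levels by library. The ratio runs from 0.484 in control 1 to 1.92 in the wild type library, and R534H and P568L sit lowest for KRT8.

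The genes most like KRT8 in pattern, by the same measure among 11574 genes, were GDPD5 (r = 0.93), MCF2L (0.89), NTN1 (0.86), SNHG10 (0.86) and FCHSD2 (0.85). GDPD5, a membrane phosphodiesterase, was at 4.29 and 10.7 CPM in the controls, 8.44 to 9.13 CPM after knockdown, 10.1 CPM with wild type and 4.23 to 6.41 CPM with mutants. NTN1, the secreted guidance protein netrin-1, was at 6.86 and 19.4 CPM in the controls, 22.9 to 23.7 CPM after knockdown, 21.3 CPM with wild type and 9.06 to 16.0 CPM with mutants. Like KRT8, both were lower in control 1 than in control 2, and in all 3 mutants than in any knockdown library.

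KRT7, a type II keratin of ductal epithelia, was at 0.468 and 2.17 normalised CPM in control 1 and control 2, at 3.31, 1.26 and 1.65 CPM after knockdown, at 1.40 CPM with wild type and at 1.57, 0.951 and 2.00 CPM with the mutants. Control 1 was lowest with 6 counts and shDDX3X 1 highest with 40, and all groups overlapped. The knockdown value therefore differed by series, at a log2 of 2.26 in A and -0.39 in B. None of the tested comparisons passed for KRT7 (log2 -1.005 ± 1.01 for wild type and -0.88 ± 0.77 for mutants against knockdown, 0.06 ± 0.70 for mutants against control, adjusted p of 0.862 to 1).

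KRT19, the type I keratin without a tail domain, had 9 and 5 counts in the controls, 3, 1 and 0 in shDDX3X 1, 2 and 3, and 2 with wild type. G302V, R534H and P568L had 0, 1 and 0. Both controls were above every other library, at 0.702 and 0.493 normalised CPM. Of all genes tested, 10.8% were lower than both controls in every knockdown library, and 17.6% in every mutant. The libraries without a count allow up to 0.355, 0.363 and 0.230 CPM. By counting error, the ratio to control 2 could be up to 1.31 in shDDX3X 3, 1.34 in G302V and 0.850 in P568L. With 21 reads in all, no fold is given.

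Most other keratins did not pass the filter on low counts: 7 of the 26 listed did, and 0 were called in any of the 5 comparisons in edgeR. With knockdown 4 were higher and 3 lower (median log2 0.07 beside -0.01 over all genes tested). KRT75, a hair follicle keratin, had the smallest p (log2 -1.89, adjusted p = 0.0685; 7.33 and 9.57 CPM in the controls, 1.49, 3.94 and 1.54 CPM after knockdown), followed by KRT15 of basal epithelium (log2 -2.33, adjusted p = 0.0834). KRT75 passed without shDDX3X 2 (adjusted p = 0.0228), in a range of 9.66e-05 to 0.683 over the alternatives. Mutants against control gave 2 higher and 5 lower (median -0.31 beside 0.03).

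Among these, KRT14, the basal type I keratin, was at 4.37 and 10.3 CPM in the controls, 2.73, 2.18 and 0.709 CPM after knockdown, 2.45 CPM with wild type and 0.604, 0.106 and 0.307 CPM with the mutants. All 3 mutants were below every other library, but G302V (0.604 CPM) was close to shDDX3X 3 (0.709 CPM). R534H lay under the level of 3 counts in its library (0.317 CPM), so the mutant values rest on few reads. Of all genes tested, 17.6% were lower in mutants than in controls without overlap. Against control the fitted log2 value was -4.40 ± 0.73 with an adjusted p of 0.0887 in edgeR. DESeq2 gave 0.000465, leaving out control 1 gave 0.00482, leaving out shDDX3X 3 gave 0.00387, and leaving out control 2 reduced the value to -1.91, with adjusted p-values of 1.33e-12 to 0.511 over the alternatives.

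The adhesion proteins were at the edge of detection. EPCAM, a cell adhesion protein of simple epithelia, had 22 and 9 counts in the controls, 1, 4 and 4 after knockdown, 5 with wild type and 2, 5 and 2 with the mutants. Both controls were highest, at 1.71 and 0.887 normalised CPM, and the others lay between 0.0828 and 0.583 CPM. As given for KRT19, 10.8% of all genes tested lay below both controls in every knockdown library and 17.6% in every mutant. Relative to the control of the same series, shDDX3X 1 and 2 held 4.83% (0.117% to 29.9%) and 19.5% (4.90% to 57.5%). In series B shDDX3X 3 held 53.3% (12.0% to 191%) and the wild type library 65.7% (17.3% to 218%). G302V and R534H held 27.2% (2.86% to 132%) and 59.5% (15.7% to 198%), and P568L 17.3% (1.82% to 83.6%). These intervals cover counting error only, not the spread between libraries, so no difference is read from them.

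CDH1 (E-cadherin), the calcium-dependent adhesion receptor of adherens junctions, had 2 and 5 counts in the controls and 0 to 2 in the other 7 libraries. It reached at most 0.493 normalised CPM, in control 2, and was without a count in shDDX3X 1, which allows up to 0.248 CPM. No difference was detectable at this depth.

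CLDN16 (ENSG00000113946.3), a claudin known for paracellular magnesium transport in the kidney, was the member whose level was low in knockdown and high again with re-expressed DDX3X. It was at 10.8 and 17.1 normalised CPM in control 1 and control 2 (138 and 173 counts), and at 0.993, 3.77 and 3.55 CPM in shDDX3X 1, 2 and 3 (12, 45 and 30 counts). It reached 24.9 CPM with wild type DDX3X, and in the G302V, R534H and P568L libraries 21.6, 15.5 and 12.9 CPM (147 to 214 counts in these libraries). All knockdown libraries lay below all 6 others. Of all genes tested, 10.8% had every knockdown library below both controls, 24.0% below the wild type library and 7.84% below all mutants. The share with all of these at once was not counted.

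Within series, the knockdown libraries held 9.23% (4.66% to 16.7%), 35.1% (24.5% to 49.4%) and 20.8% (13.6% to 30.7%) of control CLDN16. The fitted knockdown value, a description, was -2.21 ± 0.43 log2, with -2.17 in series A and -2.26 in series B. The counting intervals of shDDX3X 1 and 2 did not overlap, while that of shDDX3X 3 overlapped both. Relative to control 2, CLDN16 was at 146% (119% to 180%) with wild type, 127% (102% to 157%) with G302V, 91.0% (72.6% to 114%) with R534H and 75.6% (60.8% to 94.1%) with P568L.

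Against shDDX3X 3, which has the same hairpin target and series, CLDN16 was 7.03 times as high with wild type (4.79 to 10.7), 6.10 times with G302V (4.13 to 9.31), 4.38 times with R534H (2.94 to 6.72) and 3.64 times with P568L (2.46 to 5.56). In the fit over all libraries, wild type against knockdown was 2.78 ± 0.59 log2 (6.86-fold, 95% confidence interval 2.76 to 17.1) with an unadjusted p of 0.000856, and an adjusted p of 1 in edgeR. Mutants against knockdown were at 2.19 ± 0.51 (4.58-fold, 2.09 to 10.04; 3 of 3 mutants above 3 of 3 knockdown libraries), with an unadjusted p of 0.00156 and an adjusted p of 0.831. Neither passed in edgeR, while DESeq2 gave adjusted p-values of 0.0300 and 0.00966. Both comparisons use the knockdown libraries of the contrast on which the genes were chosen, so they are not independent of that choice. Over the alternatives the adjusted p ranged from 3.51e-07 to 1 for wild type and from 3.31e-06 to 1 for mutants.

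Mutant and control levels of CLDN16 overlapped, with a log2 difference of -0.02 (95% confidence interval -1.002 to 0.97, adjusted p = 0.995), an interval that admits up to about the fold of 2 used here for size. Mutants against wild type, described only, gave -0.58 ± 0.49. By counting error, the ratio to the wild type library was 0.868 (0.707 to 1.06) for G302V, 0.623 (0.501 to 0.772) for R534H and 0.517 (0.420 to 0.636) for P568L.

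CLDN1, a main claudin of epidermal and other tight junctions, was at 1.56 and 12.5 normalised CPM in control 1 and control 2, at 14.2, 5.61 and 13.2 CPM after knockdown, at 9.21 CPM with wild type and at 8.10, 11.1 and 13.4 CPM with the mutants. Control 1, the parental library, was low with 20 counts, and every other library had 67 to 174. The knockdown value was accordingly 2.66 log2 in series A and 0.08 in series B. Tested comparisons did not pass (log2 -1.26 ± 0.84 for wild type and -1.02 ± 0.65 for mutants against knockdown, 0.32 ± 0.57 for mutants against control, adjusted p of 0.832 to 1). Because control 1 is parental and control 2 has the vector, the kind of control and the series cannot be told apart.

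**Figure D3:**
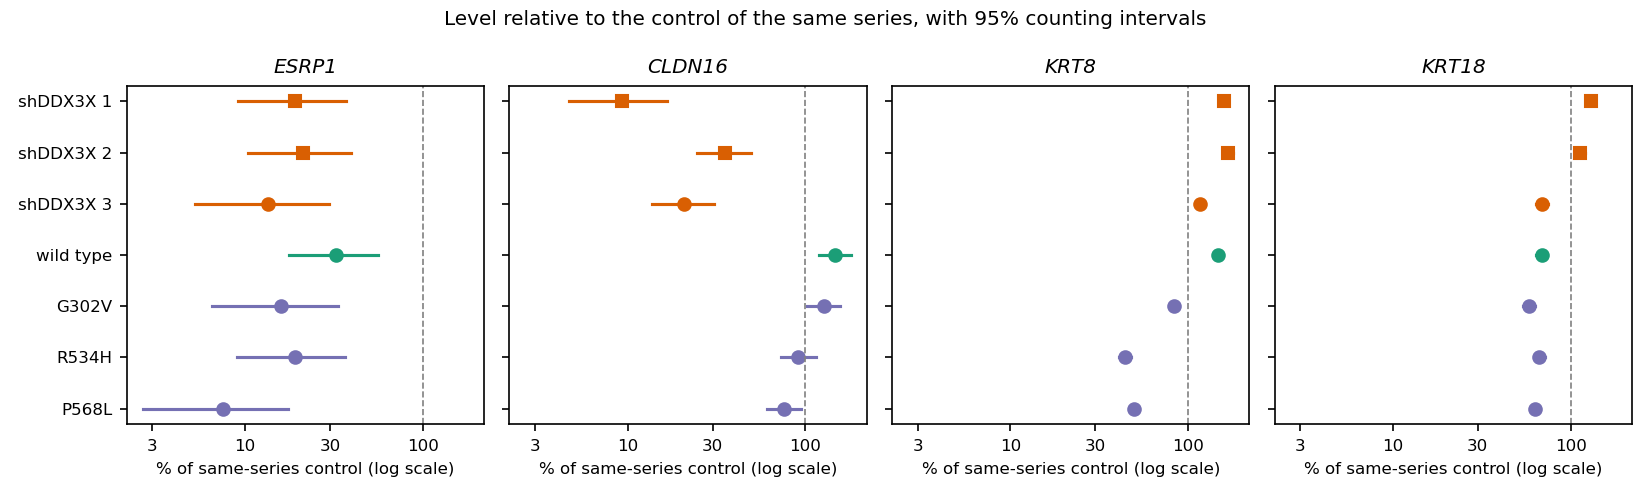
Levels of ESRP1, CLDN16, KRT8 and KRT18 as a percent of the control of the same series (log axis), with exact 95% binomial counting intervals; the dashed line is 100%, squares are series A and circles series B, and intervals of the keratins are narrower than the symbols. ESRP1 stays at 7.54% to 32.4% in all 7 libraries, while CLDN16 is at 9.23% to 35.1% after knockdown and 75.6% to 146% with re-expressed DDX3X.

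Over the fits, 109 of 16155 genes were called for knockdown against control, 0.675% of those tested, and this contrast served to choose the genes, so nothing is read from their place in it. Genes called lower made up 0.39%. Of the 6 members in the fit, ESRP1 and CLDN16 lay with all knockdown libraries below both controls, as did 10.8% of all genes tested. Wild type against knockdown called 0 genes (0.0%) in edgeR, with 472 genes at an unadjusted p under 0.05 and 3 called by DESeq2, CLDN16 among them. Mutants against knockdown called 0 (0.0%), with 894 at an unadjusted p under 0.05 and 23 called by DESeq2. Mutants against wild type called 0 (0.0%), with 315 at an unadjusted p under 0.05 and 0 called by DESeq2, and nothing is read from the members there: KRT8, KRT18, ESRP1 and CLDN16 were lower in every mutant than in the wild type library, as were 25.0% of all genes.

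Mutants against control called 3 genes (0.0186%), all lower and none a member, with 1923 at an unadjusted p under 0.05 and 157 called by DESeq2. Without overlap between groups, KRT8 and KRT18 were lower in mutants than in knockdown, beside 6.8% of all genes, and CLDN16 was higher, beside 7.84%. ESRP1 and KRT18 were lower in mutants than in controls, beside 17.6%. In wild type against knockdown KRT18 was lower, beside 22.2%, and KRT8, ESRP1 and CLDN16 were higher, beside 24.0%. These statements take no account of the series. Against shDDX3X 3, the knockdown library of the same series, KRT18 was 0.993 (0.913 to 1.08, counting error) with wild type. With G302V, R534H and P568L it was 0.845 (0.773 to 0.923), 0.964 (0.888 to 1.05) and 0.909 (0.841 to 0.983).

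**Figure D4:**
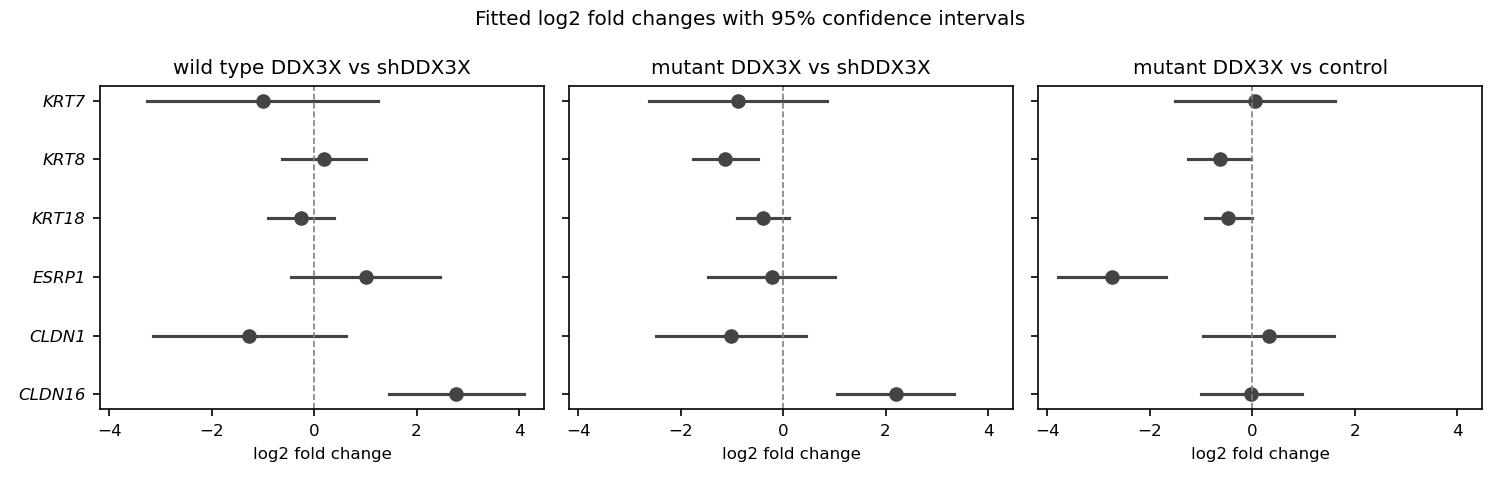
Fitted log2 fold changes (points) with 95% confidence intervals (lines) of the 6 genes that passed the filter, in the 3 comparisons the genes were not chosen on; the dashed line is no change. CLDN16 lies at 2.78 and 2.19 against knockdown, ESRP1 at -2.74 for mutants against control, and none passed after adjustment over all genes in edgeR.

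Other epithelial genes were read from lists outside the 10 members. Like the members, the lists were written with earlier results of these libraries in view. Their counts and p-values, that of TP63 included, are therefore not independent of what had been seen. Of 32 listed epithelial regulators and surface proteins 19 were tested, and with knockdown 16 were lower and 3 higher (median log2 -0.58 beside -0.01 over all genes tested), of which 1 was called. That gene was TP63, the p53-family transcription factor of basal and squamous epithelium, with a log2 value of -2.91 ± 0.31 and an adjusted p of 0.0108 in edgeR. It was at 18.6 and 23.5 CPM in the controls, 3.31, 2.43 and 2.48 CPM after knockdown, 8.51 CPM with wild type and 7.25, 4.65 and 5.14 CPM with the mutants.

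TP63 was thus lowest in the knockdown libraries and intermediate with either form of re-expressed DDX3X. The call was lost without control 1 (adjusted p = 0.0837), without P568L (0.0725) with only the knockdown and control libraries in the fit (0.203) and with the replicate number as a block (0.351). Mutants against control came to -1.93 ± 0.31 (adjusted p = 0.0875), which passed in DESeq2 (0.00176) and without control 1 (0.0278), shDDX3X 2 (0.0409) or shDDX3X 3 (0.0196), and ranged from 7.25e-06 to 0.46 over the alternatives. In the same list 16 of 19 genes were higher with wild type than in knockdown (median 0.45 beside -0.015 over all genes tested). With mutants 14 of 19 were higher than in knockdown (0.17 beside 0.006), and 15 of 19 were lower than in controls (-0.54 beside 0.025). These counts share knockdown or control libraries with the knockdown count above, so they are not independent of it. No single gene of the list was called in these comparisons in edgeR. Squamous markers (KRT5, KRT14, TP63 and DSG3, the last at 0 in every library) summed to 23.9 to 34.4 CPM in controls, 3.55 to 6.95 CPM after knockdown, 11.8 CPM with wild type and 4.96 to 8.10 CPM with mutants. These sums were chiefly TP63 and KRT14. KRT5 overlapped, at 0.935 and 0.690 CPM in the controls and 0.911, 1.01 and 0.355 CPM after knockdown. The part of these markers in the ESRP1 result was not tested.

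Desmosome and hemidesmosome genes (18 of 21 tested) gave 12 lower and 6 higher with knockdown (median -0.25) and 11 lower and 7 higher with mutants against control (-0.30), with 0 called in any comparison. PKP2, a desmosomal plaque protein, was at 12.3 and 27.0 CPM in the controls and 5.22, 6.79 and 10.8 CPM after knockdown (log2 -1.16, adjusted p = 0.0533). It passed without shDDX3X 2 (0.0356) or shDDX3X 3 (0.0425), in a range of 0.0014 to 0.6 over the alternatives. Without shDDX3X 3, series A alone sets knockdown against a control. ITGB4, the hemidesmosomal integrin subunit, was at 32.6 and 97.2 CPM in the controls and 6.13, 12.5 and 22.5 CPM after knockdown (log2 -1.94, adjusted p = 0.0681).

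Tight and adherens junction genes were balanced: of 24 tested among 37, 11 were higher and 13 lower with knockdown (median -0.03), and 12 were higher and 12 lower with mutants against control (-0.03), with 0 called in any comparison. F11R, the junctional adhesion molecule A, was at 34.8 and 18.8 CPM in the controls and 13.7, 13.2 and 13.0 CPM after knockdown (log2 -1.03, adjusted p = 0.0654). PATJ, a polarity scaffold, followed (log2 -0.80, adjusted p = 0.115). Both passed without shDDX3X 3 (0.00419 and 0.0246), a fit in which series A alone sets knockdown against a control. The ranges were 0.00207 to 0.853 and 0.0232 to 0.928 over the alternatives.

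Of the 10 transcription factors of epithelial-mesenchymal transition, 6 were higher and 4 lower with knockdown (median 0.26), and 6 were higher and 4 lower with mutants against control (0.30), with 0 called in any comparison. TCF3, an E-box factor, was at 57.9 and 230.4 CPM in the controls and 253, 221 and 353 CPM after knockdown (log2 1.40, adjusted p = 0.0598). It passed without control 2 (0.00014) and without shDDX3X 3 (0.000154), fits in which series A alone sets knockdown against a control, and the alternatives ranged from 7.04e-09 to 0.95. PRRX1, a mesenchymal homeobox factor, had a log2 value of -1.93 (adjusted p = 0.119) and passed without shDDX3X 2 (0.0355), in a range of 0.00068 to 0.635.

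Of 17 mesenchymal and other intermediate filament genes 15 were tested, with 9 higher and 6 lower after knockdown (median 0.18) and 7 higher and 8 lower with mutants against control (-0.16), and 0 called in any comparison. NES (nestin), a filament protein of neural progenitors, was at 4.52 and 3.35 CPM in the controls and 13.3, 7.21 and 9.81 CPM after knockdown (log2 1.33, adjusted p = 0.0876; 0.0424 without shDDX3X 2, 0.00713 to 0.772 over the alternatives). VIM (vimentin), the main filament of mesenchymal cells, was at 2669 and 1469 CPM in the controls and 1821, 1319 and 1066 CPM after knockdown. Its log2 value was -0.64 (adjusted p = 0.0897, with 0.00827 to 0.985 over the alternatives).

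**Figure D5:**
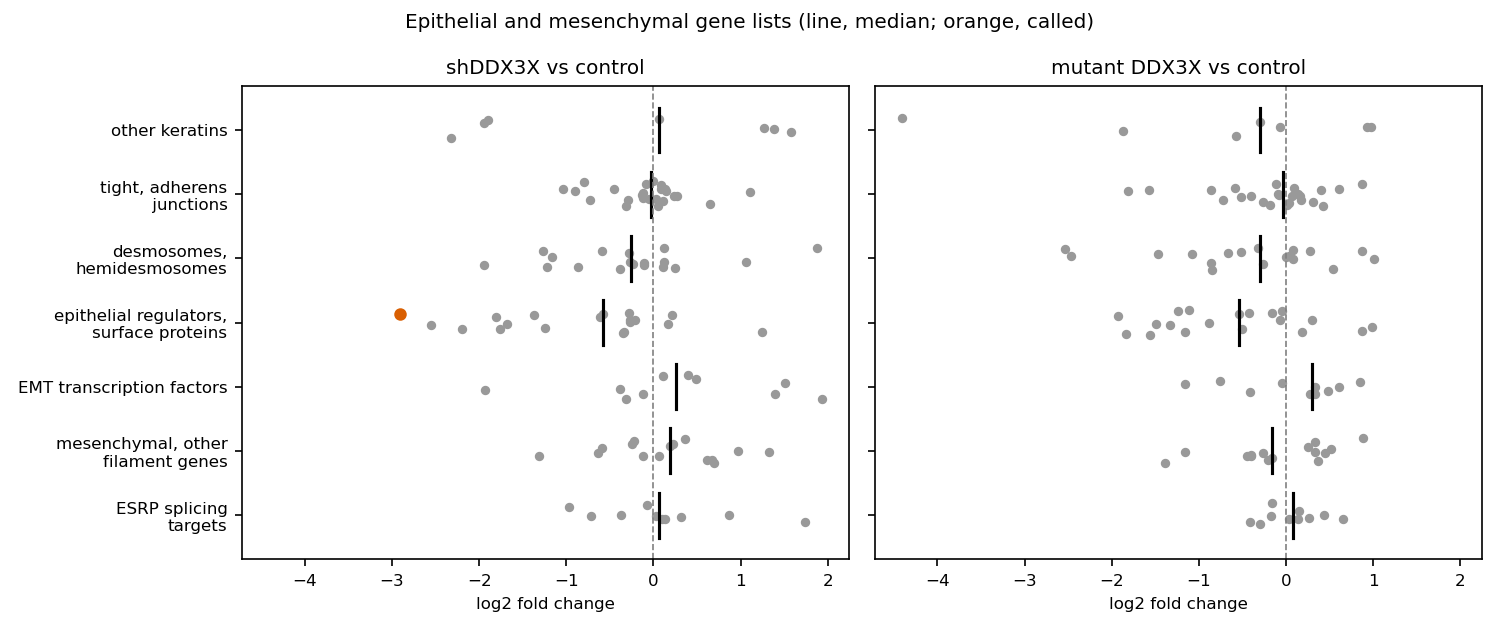
Log2 fold change of each tested gene (points, spread vertically for legibility) in the 7 lists outside the 10 members, for knockdown against control (left) and mutants against control (right); the vertical bar is the list median and orange marks the 1 called gene, TP63. The list of epithelial regulators has medians of -0.58 and -0.54, and the junction list of -0.03 in both.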

How the data were processed

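Poly(A) RNA of Daoy cells was sequenced as 100 nt single ends from unstranded TruSeq (version 2) libraries, per the labels' protocols. The authors deposited raw read counts per Ensembl gene, 1 table per library. The submitters' processing notes list the tools HISAT2, HTSeq, bcl2fastq and DESeq2 and the build GRCh37 (hg19), without role, version or settings. The summary lines that name no gene held 20.3% to 35.8% of reads and were left out of library sizes and tests. Identifiers were matched to symbols for 51996 of 57820 (89.93%). Transcript lengths came from GENCODE v29, which is on another build, so no coordinates are given. No library was a copy of another of its group: counts of such pairs gave a chi-square of 10.2 to 85.7 for each degree of freedom.

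Tests used the quasi-likelihood pipeline of edgeR (version 4.0.16 in R 4.3.3, robust option) with TMM scaling. The filter of 1 CPM in 2 or more libraries left 16155 genes, fitted with group and number series as terms and all 9 libraries sharing 1 estimate of the spread (4 residual degrees of freedom, median prior 5.85). The 1 wild type library is assumed to vary like the other groups. Since series B holds every re-expression library, folds against all knockdown libraries also depend on the series term and can differ from the ratio of group means. Adjusted p-values follow Benjamini and Hochberg over all genes tested, and genes were called at 0.05. Ratios of single libraries carry exact Clopper-Pearson 95% intervals on their counts. The number series was read from the deposited names and is not a labelled batch. DESeq2 1.42.0 and the other alternatives are given at the end.

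The members and gene lists were chosen with earlier results of these data known. Named were all 10 members, the 5 genes most like ESRP1 and KRT8, and per list the called genes (at most 4 in each direction) or else the 2 of smallest p. List genes are printed for knockdown against control, and for mutants against control only KRT14 and TP63. One gene that this rule names is not reported here.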

Additional observations from a re-analysis of the deposited data

Results flagged for a closer look

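The knockdown effects on 2 keratins had opposite signs in the number series. KRT7 in shDDX3X 1 and 2 lay above control 1, and in shDDX3X 3 it lay below control 2, so that the log2 effect in series B minus that in series A was -2.65 (SE 1.15). KRT18 behaved in the same way with a difference of -0.82 (SE 0.31), from 0.29 in series A to -0.53 in series B. Because the genes were chosen on the knockdown contrast, both are given without a p-value. Series B has 1 control and 1 knockdown library, and the controls of the series also differ in kind (parental or vector), which cannot be told apart from the series.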

How the results depend on the processing

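Of 789 alternative fold changes of single genes, 32 had the other sign, 71 passed the threshold anew and 4, all of TP63, lost it. Knockdown values of KRT7, KRT18, ESRP1 and CLDN1, which are given without a test, moved by more than the spread between replicates in 17 alternatives, and the causes were not tested. Genes called for knockdown against control numbered 109, and 1313 with DESeq2, 270 after removal of each library's GC trend, 17 at a mean of at least 5 CPM (a filter that drops ESRP1 and KRT7), 1920 without a filter, 6 without the series term, 0 with only the groups compared, 1037 in series A and 1 to 2097 leaving out a library. For wild type against knockdown they numbered 0, and 3 with DESeq2, 57 without a filter, 5 in series B and 0 to 597 leaving out a library. For mutants against knockdown they were 0, and 23, 166 and 9 in those settings, 1 with only the groups compared and 0 to 999 leaving out a library. Mutants against wild type gave 0, and 36 without a filter and 0 leaving out a library. Mutants against control gave 3, and 157 with DESeq2, 23 after GC removal, 1 at a mean of at least 5 CPM, 658 without a filter, 419 with only the groups compared, 445 in series B and 0 to 781 leaving out a library. The fits without shDDX3X 3 and without control 2 decided the upper ends.

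Among members, 1 (CLDN16) was called for wild type against knockdown with DESeq2, without a filter and in series B (adjusted p = 0.0287), and for mutants against knockdown with DESeq2. Without a filter 2 were called there (CLDN16 and KRT8). ESRP1 was the 1 member called for mutants against control with DESeq2, without a filter, with only the groups compared (0.00492) and in series B (0.00686), and 0 to 1 were called leaving out a library. Signs changed mostly where values were near 0. For mutants against control, KRT7 (0.06) was -0.057 after GC removal, -0.50 with only the groups compared, -0.51 in series B and -0.50 to 2.15 leaving out a library. CLDN1 (0.32) was -0.20 in the same pair of settings and -0.20 to 2.38 leaving out a library, CLDN16 (-0.02) was 0.011 after GC removal, 0.26 without the series term and -0.25 to 0.14 leaving out a library, and KRT18 (-0.46) was -0.67 to 0.14 leaving out a library. KRT18 in knockdown against control (-0.07) was 0.087 without the series term, 0.30 in series A and -0.53 to 0.29 leaving out a library. ESRP1 in mutants against knockdown was 0.018 with only the groups compared, 0.0066 in series B and -0.56 to 0.13 leaving out a library, and KRT8 in wild type against knockdown (0.20) was -0.15 to 0.34 leaving out a library.

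A fit with the replicate number as a block (4 libraries, 1 residual degree of freedom) called 0 genes for knockdown against control, with KRT18 at 0.33 and TP63 at -2.87. Deviations from the group mean correlated at 0.388 and -0.285 between same-numbered libraries over 11729 genes. Control 1 with shDDX3X 2 gave 0.285, and control 2 with shDDX3X 3, of the same series, gave 0.486. With 2 controls their deviations are exact opposites, so these values cannot show whether same-numbered libraries belong together. Depth limits EPCAM, CDH1, ESRP2 and KRT19 in every library, and ESRP1 outside the controls.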
